A study of Homo sapiens with 32 samples.

Results

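SOX9, a transcription factor of pancreatic progenitors, was represented by 2 of the 26104 merged m6A peaks of the data set and was 1 of 7978 genes with such a peak. The peaks were chosen by the gene identifier alone (ENSG00000125398.6), with no measured value, and are named here by the position listed with the identifier, 51 and 1951. Both passed the filter on low counts. The authors had called and merged the peaks in these same libraries, so a region is included only where a peak was called. The genome build behind these positions was not given in the sources used here, so no genomic coordinates, exon or untranslated region are given and no sequence is printed.

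The data came from 2 human embryonic stem cell lines, H1 and MEL1, that were either undifferentiated (S0) or differentiated in vitro to posterior foregut (S3), pancreatic progenitors (S4) or immature β-like cells (S6). Each line and stage was represented by 2 preparations, 16 in all. Poly(A)-selected RNA of each preparation was sequenced before (input) and after (IP) immunoprecipitation with an antibody to N6-methyladenosine (m6A), which gave 16 input and 16 IP libraries. The labels name no genetic change, treatment or sort beyond the differentiation protocol, so the differentiated groups are bulk cultures that may hold other cells than the stage name says. The labels tag the replicates as clones and the study describes them as independent biological samples, without saying how they were separated.

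SOX9 belongs to the SOX family of transcription factors, which bind DNA through a high-mobility-group domain. In the embryonic pancreas it marks and maintains the multipotent progenitor pool, where it works in a network with FGF receptor and Notch signalling, and it later becomes restricted to duct cells while endocrine cells lose it. Outside the pancreas it directs cartilage formation, where the type II collagen gene COL2A1 is its classic target, and it is also expressed in neural progenitors, neural crest, hepatobiliary and intestinal progenitors. m6A is placed on mRNA by a methyltransferase complex, is often found near stop codons, and is read by proteins that change the stability, splicing or translation of the transcript.

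Library totals were 2652830 to 6879256 counts (median 4318760) for input and 2378881 to 15674899 (median 13100407) for IP, the MEL1 S4 preparations having the shallowest IP libraries. Of 13 markers of undifferentiated cells, 8 were measured, and their summed input level fell from 4298 to 4504 CPM at S0 to 961 to 999 at S6 in H1 and from 5373 to 6392 to 628 to 633 in MEL1. Of 25 transcription factors of endoderm and pancreatic progenitors, 19 were measured, with sums of 76.6 to 96.2 CPM at S0 and 828 to 3368 in the other stages of both lines. Of 20 endocrine markers, 4 were measured, and their sum was highest at S6 in each line, at 817 to 844 CPM in H1 and 743 to 767 in MEL1. Nearly all of it was CHGA, and in H1 none of the 4 was called for S6 vs S4 by edgeR, with 3 at an unadjusted p under 0.05. The defining hormone genes INS, GCG and SST were not analysed here, so the β-like label of S6 could not be checked against them. NKX6-1, POU5F1 and NANOG were not analysed here either.

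The input level of SOX9 was low in undifferentiated cells of both lines and then took a different course in each. The level is the sum of the counts in both peaks scaled to library size (CPM, normalized by trimmed mean of M values), and values in brackets are SDs with n = 2. In H1, the libraries held 7.25 and 10.2 CPM at S0 and 26.2 and 23.3 CPM at S3. They held 34.6 and 34.3 CPM at S4 and 16.2 and 17.2 CPM at S6. SOX9 therefore peaked at the pancreatic progenitor stage in H1 and was lower again in β-like cells, and no replicate pair of one stage overlapped that of another. In bulk RNA, fewer SOX9-positive cells and less SOX9 RNA per cell cannot be told apart.

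In MEL1, the libraries held 10.5 and 10.4 CPM at S0 and 9.01 and 9.70 CPM at S3. They held 23.5 and 23.2 CPM at S4 and 71.3 and 73.0 CPM at S6. SOX9 had thus not risen at the posterior foregut stage in MEL1 and was highest in the cells labelled β-like. The replicates of a stage were close in both lines, with means of 8.74 (2.11), 24.7 (2.07), 34.4 (0.19) and 16.7 (0.74) CPM in H1 and 10.5 (0.03), 9.36 (0.49), 23.4 (0.21) and 72.2 (1.18) CPM in MEL1 for S0, S3, S4 and S6. These levels rested on 30 to 250 counts per library.

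**Figure D1:**
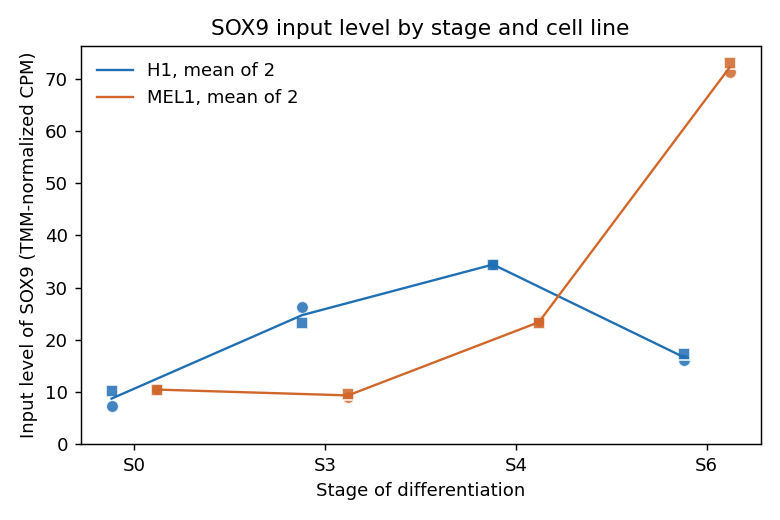
Input level of SOX9 in TMM-normalized CPM on the y axis against the stage on the x axis, for H1 (blue) and MEL1 (orange); each symbol is 1 library (circle replicate 1, square replicate 2) and lines join the means of 2. H1 reaches its highest level of 34.3 to 34.6 at S4, and MEL1 reaches 71.3 to 73.0 at S6.

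Over both lines, SOX9 was higher at S4 and at S6 than at S0. A change was called at an adjusted p under 0.1 and at least 2-fold in the quasi-likelihood test of edgeR (Benjamini-Hochberg adjustment), fitted on 7973 genes over the 16 input libraries with cell line as a covariate. By this rule S4 vs S0 was called, with a log2 fold change of 1.61 (SE 0.50, adjusted p = 0.0169 by edgeR), and the level was higher in 4 of 4 same-numbered pairs of libraries. S6 vs S0 was called too, at 2.16 (SE 0.51, adjusted p = 0.00304 by edgeR), again in 4 of 4 pairs. In both comparisons the 4 libraries of one stage did not overlap those of the other. The share of all genes without overlap was not counted, but 31.2% and 31.4% of genes were called in these comparisons.

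The sequential steps were not called over both lines, where H1 and MEL1 moved differently. S3 vs S0 had a log2 fold change of 0.85 (SE 0.50, adjusted p = 0.190 by edgeR), with both H1 pairs higher and both MEL1 pairs lower. S4 vs S3 had 0.75 (SE 0.48, adjusted p = 0.555 by edgeR), with all 4 pairs higher. S6 vs S4 had 0.56 (SE 0.50, adjusted p = 0.580 by edgeR), with both MEL1 pairs higher and both H1 pairs lower. S6 vs S3 was called at 1.31 (SE 0.51, adjusted p = 0.0928 by edgeR), yet only the MEL1 pairs were higher, and the call ended when any one of 10 of the 16 libraries was left out, and with the replicate number as a block (1.31, adjusted p = 0.138 by edgeR). Of all genes, 28.8% were called for S3 vs S0, 1.84% for S4 vs S3, 5.18% for S6 vs S4, 31.2% for S4 vs S0, 31.4% for S6 vs S0 and 14% for S6 vs S3, so a call against S0 was common.

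The course of SOX9 was then tested within each line, with 1 fitted mean per line and stage. In H1, SOX9 rose from S0 to S3 by 1.50 on the log2 scale (SE 0.24, adjusted p = 4.62e-05 by edgeR). It then fell by 1.05 from S4 to S6 (SE 0.22, adjusted p = 0.00178 by edgeR). The step between these, from S3 to S4, was 0.48 (SE 0.21, adjusted p = 0.178 by edgeR), which was not called, although both S4 libraries lay above both S3 libraries. S4 vs S0 was called at 1.97, while S6 vs S0 at 0.93 and S6 vs S3 at -0.57 missed the 2-fold limit. S6 vs S0 was called at 51 alone (1.31, adjusted p = 0.0288 by edgeR) and not at 1951 alone (0.63). Without the second H1 S0 preparation it was 1.21, past the 2-fold limit. The share of all genes called in H1 was 21.8% for S3 vs S0, 6.18% for S4 vs S3, 8.48% for S6 vs S4, 27.3% for S4 vs S0, 27.5% for S6 vs S0 and 15.7% for S6 vs S3.

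In MEL1 the rise came later. S3 vs S0 was -0.16 (SE 0.25, adjusted p = 0.603 by edgeR) and was not called. SOX9 rose by 1.32 from S3 to S4 (SE 0.25, adjusted p = 0.000661 by edgeR) and by 1.62 from S4 to S6 (SE 0.23, adjusted p = 1.39e-05 by edgeR). S4 vs S0 at 1.16 (0.86, under the 2-fold limit, at 1951 alone), S6 vs S0 at 2.78 and S6 vs S3 at 2.94 were called as well. The share of all genes called in MEL1 was 44.9% for S3 vs S0, 11% for S4 vs S3, 17.7% for S6 vs S4, 47.2% for S4 vs S0, 42% for S6 vs S0 and 23.1% for S6 vs S3.

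The difference between the lines was itself tested as the interaction of line and stage. From S4 to S6 SOX9 changed by 2.67 more on the log2 scale in MEL1 than in H1 (SE 0.31, adjusted p = 3.71e-06 by edgeR). From S0 to S3 it changed by -1.66 in MEL1 relative to H1 (SE 0.35, adjusted p = 0.000787 by edgeR), a difference that was -2.26 at the peak at 1951 alone and -0.32 (adjusted p = 0.777 by edgeR, not called) at 51 alone. The difference was also called for S6 vs S0 at 1.86 and S6 vs S3 at 3.51, whereas S4 vs S3 at 0.84 (adjusted p = 0.114 by edgeR) and S4 vs S0 at -0.81, which missed the 2-fold limit, were not called. The latter was called without the second H1 S0 preparation (-1.06, adjusted p = 0.0439 by edgeR) and at 1951 alone (-1.18, adjusted p = 0.0369 by edgeR). Line differences were called for 34% of all genes for S3 vs S0, 9.65% for S4 vs S3, 15.3% for S6 vs S4, 36% for S4 vs S0, 25.1% for S6 vs S0 and 18.9% for S6 vs S3.

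At a given stage, the lines held similar SOX9 levels before differentiation and opposite orders after it. MEL1 vs H1 was 0.26 at S0 (SE 0.25, adjusted p = 0.491 by edgeR). It was -1.40 at S3 (SE 0.24, adjusted p = 5.98e-05 by edgeR), a called difference with H1 higher, and from the peak at 51 alone it was -0.62 and not called (adjusted p = 0.276 by edgeR). At S4 it was -0.56, under the 2-fold limit, and at S6 it was 2.11 (SE 0.22, adjusted p = 1.91e-07 by edgeR), with MEL1 higher. The share of genes called between the lines for S0, S3, S4 and S6 was 15.3%, 29.8%, 34% and 22.4%.

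**Figure D2:**
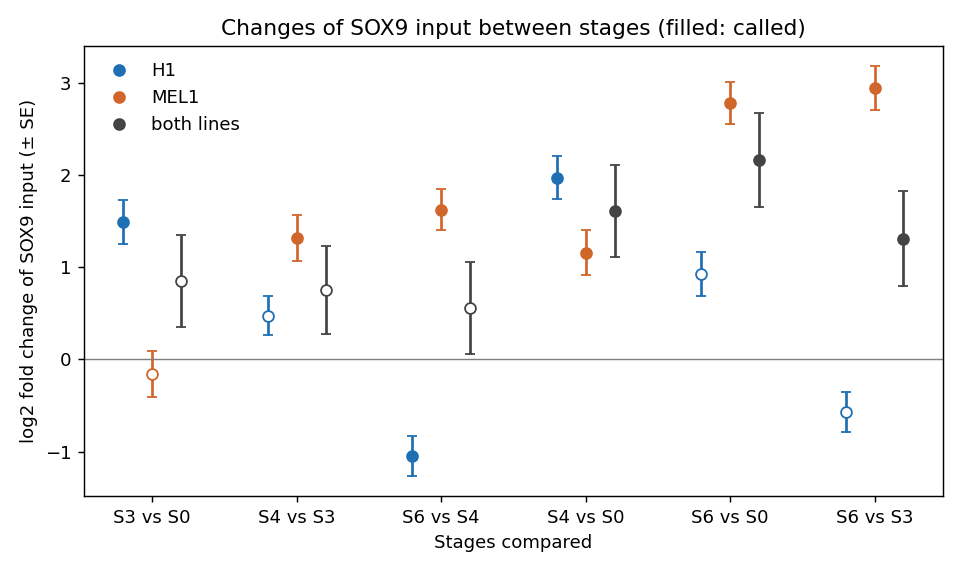
log2 fold change of SOX9 input (y axis, bars ± SE) for each pair of stages (x axis), in H1 (blue), MEL1 (orange) and both lines (grey); filled points were called and open points were not. For S6 vs S4 the H1 value is -1.05 and the MEL1 value 1.62, while the value over both lines is 0.56.

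The estimates of these input changes differed between the peaks, and whether the peaks truly differ was not tested. In MEL1 from S0 to S3, the peak at 1951 went from 43 and 35 to 21 and 20 input counts and had a log2 change of -0.78 (SE 0.32, adjusted p = 0.0462 by edgeR), while the peak at 51 went from 8 and 13 to 15 and 23 counts and had 0.98 (SE 0.48, adjusted p = 0.0975 by edgeR). Both values missed the 2-fold limit. The fall from S4 to S6 in H1 was -1.41 at 1951 (SE 0.27, adjusted p = 0.000968 by edgeR), where it was called. At 51 it was -0.52 (SE 0.38, adjusted p = 0.491 by edgeR) and was not called. The rise from S3 to S4 in MEL1 was 1.64 at 1951 (adjusted p = 0.000939 by edgeR) and 0.84 at 51, where it was not called (adjusted p = 0.273 by edgeR). The rise from S4 to S6 in MEL1 was called at both, at 1.52 for 1951 and 1.82 for 51.

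The m6A signal of SOX9 lay in the peak at 1951. For each preparation, IP over input is the difference of log2(CPM + 1) between the IP and the input library, scaled over all 32 libraries, so 0 is near the typical merged peak. In H1, the peak at 1951 had 3.39 and 2.99 at S0 and 2.93 and 3.19 at S3. It had 1.19 and 1.23 at S4 and 3.06 and 3.16 at S6. H1 pancreatic progenitors thus stood below every other H1 preparation, and the other stages lay within one narrow range.

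In MEL1, the peak at 1951 had 0.31 and 1.18 at S0 and 3.44 and 3.95 at S3. It had 2.54 and 2.12 at S4 and 3.11 and 2.77 at S6. Here it was the undifferentiated cells that stood below all other preparations, and the posterior foregut that stood highest. Among all peaks of the same preparation, the peak at 1951 ranked at the 93.7 to 99.8 percentile in 12 preparations. The exceptions were MEL1 S0, at the 53.8 and 73.7 percentile, and H1 S4, at the 76.4 and 81.5 percentile.

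These ratios rested on few input counts and many IP counts. At S0, the H1 libraries held 24 and 27 input and 831 and 849 IP counts at 1951. The MEL1 libraries held 43 and 35 input but 178 and 336 IP counts. At S4, H1 held 100 and 177 input and 683 and 955 IP counts, and MEL1 held 35 and 43 input and 368 and 291 IP counts in the shallowest IP libraries. At S6 the IP counts reached 5233 and 3053 in MEL1.

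The peak at 51 was not enriched. Its log2 IP over input was 0.57 and -1.27 at S0, -1.39 and -1.21 at S3, -1.19 and -1.93 at S4 and -0.45 and -0.63 at S6 in H1. In MEL1 it was -0.37 and -0.94 at S0, -0.38 and -1.64 at S3, -0.64 and -1.53 at S4 and -0.51 and -0.25 at S6. It was thus below 0 in all preparations but the first H1 S0 one, which held 6 input counts, and it ranked between the 17.9 and 58.2 percentile of all peaks.

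**Figure D3:**
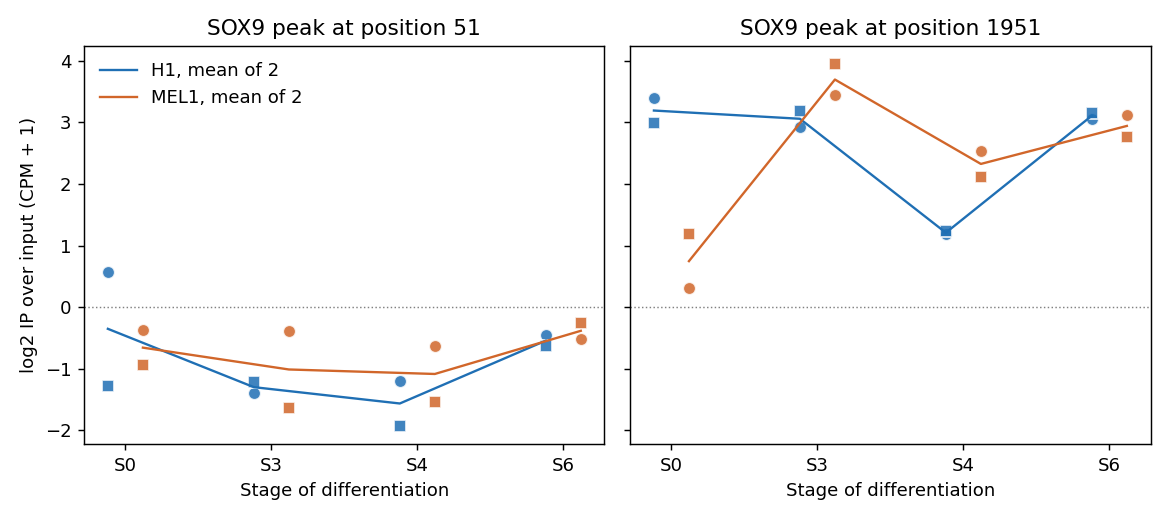
log2 IP over input of the SOX9 peaks at 51 (left) and 1951 (right) against the stage, for H1 (blue) and MEL1 (orange); each symbol is 1 preparation (circle replicate 1, square replicate 2), lines join means of 2, and the dotted line marks 0. At 1951 the H1 S4 values (1.19 and 1.23) and the MEL1 S0 values (0.31 and 1.18) lie apart from the others, which are 2.12 or higher.

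IP was tested against input at each stage in a model of stage and library type over all 32 libraries and 26104 peaks, with cell line as a covariate. At 1951 it was called higher at every stage, with log2 ratios of 2.41 at S0 (SE 0.60, adjusted p = 0.00144 by edgeR), 3.34 at S3 (SE 0.61, adjusted p = 3.25e-05 by edgeR), 1.79 at S4 (SE 0.58, adjusted p = 0.0110 by edgeR) and 3.04 at S6 (SE 0.60, adjusted p = 8.46e-05 by edgeR). Of all peaks, 30.7%, 30.3%, 20.8% and 28.4% were called higher at the respective stages, so enrichment was common among merged peaks. Since the peaks had been called in these same data, the tests describe the level and are no independent support for enrichment. The S4 value was 1.24 (adjusted p = 0.230 by edgeR) without the MEL1 S4 preparations. At 51 IP was called lower at S3 (-1.47, adjusted p = 0.0271 by edgeR) and S4 (-1.52, adjusted p = 0.0284 by edgeR) and not at S0 (-0.76) or S6 (-0.44), against 24.9%, 31%, 32.1% and 34.6% of peaks called lower at S0, S3, S4 and S6. The S4 value at 51 was -1.19 and -1.24 without the first and the second H1 S4 preparation, and neither was called, while the S0 value at 51 was called without the first H1 S0 preparation (-1.40, adjusted p = 0.0873 by edgeR) and with DESeq2 (-1.42).

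Set against each other within preparations, the peaks differed in the same direction everywhere. The log2 IP over input at 1951 exceeded that at 51 by 3.40 ± 1.11 (SD, n = 16), and it was higher in 16 of 16 preparations. The 2-sided exact permutation test over sign flips gave p = 3.05e-05, the smallest it can give, and p = 0.000214 adjusted over the 7 groups compared. The difference was 3.58 ± 0.75 in H1 and 3.21 ± 1.41 in MEL1 (SD, n = 8 each), with an exact permutation p = 0.00781 in each line, again the smallest possible, and 0.0182 adjusted. By stage it averaged 2.47 ± 1.49, 4.53 ± 0.75, 3.09 ± 0.52 and 3.49 ± 0.33 for S0, S3, S4 and S6 (SD, n = 4 each), where the exact test cannot go below 0.125.

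The same contrast is visible in how the reads of SOX9 were shared between its peaks, which needs no scaling between libraries. In input, 46.5 to 84.3% of SOX9 counts lay at 1951. In IP it was 91.3 to 98.7%, and in every preparation the IP share was above the input share. The 95% Wilson intervals of IP and input shares were separate in 15 of the 16 preparations. They overlapped in the first MEL1 S0 preparation, with 84.3% in input (72.0 to 91.8) and 91.3% in IP (86.5 to 94.5). These intervals cover counting error only. The lowest input shares were 46.5% (32.5 to 61.1) in the second MEL1 S3 preparation and 51.3% (40.4 to 62.1) in the second H1 S6 preparation, and their intervals overlap.

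**Figure D4:**
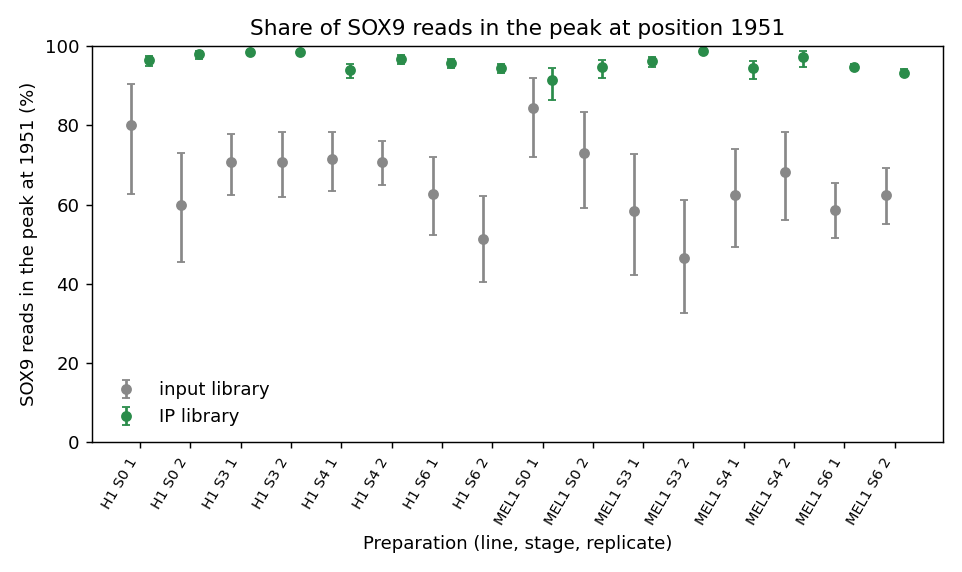
Share of SOX9 counts in the peak at 1951 (y axis, %) for the input (grey) and IP (green) library of each preparation (x axis: line, stage, replicate), with 95% Wilson intervals. IP shares are 91.3 to 98.7% and input shares 46.5 to 84.3%.

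Changes in m6A between stages were tested as changes of IP relative to input, so that a change of the transcript level alone does not count. Over both lines, no change was called at either peak. At 1951 the log2 change was 0.94 for S3 vs S0 (adjusted p = 0.963 by edgeR), -1.55 for S4 vs S3 (SE 0.80, adjusted p = 0.301 by edgeR) and 1.24 for S6 vs S4 (SE 0.79, adjusted p = 0.390 by edgeR). The level at 1951 was lower at S4 than at S3 in 4 of 4 pairs and higher at S6 than at S4 in 4 of 4 pairs, and in neither comparison did the preparations of the stages overlap. The peak at 51 was likewise higher at S6 than at S4 in 4 of 4 pairs with no overlap. The median over all peaks of a preparation moved the same way without overlap. It was 0 to 0.11 at S3, -0.49 to -0.22 at S4 and -0.21 to 0.07 at S6. The share of peaks with such a pattern was not counted. With each preparation as a block, the S4 vs S3 change at 1951 was -1.70 (adjusted p = 0.0933 by edgeR) and was called. The values were -0.61 for S4 vs S0, 0.63 for S6 vs S0 and -0.31 for S6 vs S3, with adjusted p of 0.719 or more by edgeR.

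At 51 the changes over both lines were -0.72, -0.04, 1.08, -0.76, 0.32 and 1.03 for S3 vs S0, S4 vs S3, S6 vs S4, S4 vs S0, S6 vs S0 and S6 vs S3, with adjusted p of 0.459 or more by edgeR. Of all peaks, 0.0498% were called for S3 vs S0, 6.6% for S4 vs S3, 7.58% for S6 vs S4, 11.3% for S4 vs S0, 1.26% for S6 vs S0 and 0% for S6 vs S3. For S6 vs S3 edgeR called 0 peaks, with 756 at an unadjusted p under 0.05, and DESeq2 called 4.

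Within each line, several changes at 1951 were called. In H1, m6A at 1951 fell by 1.89 from S3 to S4 (SE 0.31, adjusted p = 8.74e-05 by edgeR) and rose by 1.98 from S4 to S6 (SE 0.32, adjusted p = 8.16e-05 by edgeR). S4 vs S0 was called at -2.14 (SE 0.33, adjusted p = 3.20e-05 by edgeR), and S3 vs S0 (-0.26), S6 vs S0 (-0.16) and S6 vs S3 (0.10) were not. The median change over all peaks in H1 was -0.44 for S4 vs S3, 0.38 for S6 vs S4 and -0.66 for S4 vs S0. Relative to these medians SOX9 changed by -1.44, 1.60 and -1.49. A large share of all peaks was called in the same comparisons, 31.1% for S4 vs S3, 26% for S6 vs S4 and 32% for S4 vs S0, against 0.969% for S3 vs S0, 1.68% for S6 vs S0 and 0.559% for S6 vs S3. The H1 S4 IP libraries also held the smallest share of mitochondrially encoded counts, 0.0465 and 0.0510%, against 0.388 to 2.25% in the other IP libraries, and the part of this in the result was not tested.

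In MEL1, m6A at 1951 rose by 3.08 from S0 to S3 (SE 0.36, adjusted p = 1.55e-06 by edgeR), where the median over all peaks was 0.01. S4 vs S0 was called at 1.55 (SE 0.34, adjusted p = 0.00552 by edgeR) and S6 vs S0 at 2.12 (SE 0.33, adjusted p = 5.88e-05 by edgeR). S4 vs S3 was called at -1.53 (SE 0.36, adjusted p = 0.00347 by edgeR), with a median over all peaks of -0.68, and this call ended with other scalings of the libraries (-0.93 to -0.99) and without the first H1 S4 preparation (-0.81, adjusted p = 0.123 by edgeR). S6 vs S4 (0.58) and S6 vs S3 (-0.96) were not called. The share of peaks called in MEL1 was 19% for S3 vs S0, 26.6% for S4 vs S3, 22.1% for S6 vs S4, 14.7% for S4 vs S0, 21.3% for S6 vs S0 and 3.19% for S6 vs S3. The MEL1 S0 libraries that lay low at 1951 were not shallow, with 6879256 and 5353456 input and 12452146 and 14928825 IP counts, but mitochondrially encoded genes took 41.0 and 32.5% of their input counts, against 11.6 to 27.5% in all other input libraries. The MEL1 S0 replicates also differed most of all groups, with a chi-square per degree of freedom of 15.3 in input and 36.5 in IP. What part these had in the result was not tested.

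The lines differed in these changes. From S0 to S3, m6A at 1951 changed by 3.34 more in MEL1 than in H1 (SE 0.49, adjusted p = 8.88e-05 by edgeR), against a median of 0.25 over all peaks. From S0 to S4 the difference was 3.69 (SE 0.48, adjusted p = 1.11e-05 by edgeR) and from S0 to S6 it was 2.29 (SE 0.48, adjusted p = 0.00796 by edgeR). These comparisons share the S0 preparations. From S4 to S6 it was -1.41 (SE 0.46, adjusted p = 0.0371 by edgeR), a call that ended without the second H1 S6, the first MEL1 S4 or the second MEL1 S6 preparation (-1.35, -1.19 and -1.23). S4 vs S3 (0.35) and S6 vs S3 (-1.05) were not called. The share of peaks called was 12.2% for S3 vs S0, 29.4% for S4 vs S3, 21.1% for S6 vs S4, 18.8% for S4 vs S0, 6.52% for S6 vs S0 and 0.621% for S6 vs S3. At 51, none of the 18 changes within or between lines was called by edgeR, 0 had an unadjusted p under 0.05, and 1 was called without the second H1 S0 preparation.

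As levels within a line, IP over input at 1951 was 3.38 in H1 and 0.85 in MEL1 at S0, a called difference of -2.53 (SE 0.35, adjusted p = 2.87e-05 by edgeR). At S3 the levels were 3.12 and 3.93, and at S6 they were 3.22 and 2.97, with differences that were not called (adjusted p = 0.288 and 0.779 by edgeR). At S4 the levels were 1.24 and 2.39, and the difference of 1.16 (SE 0.33, adjusted p = 0.00752 by edgeR) was called, though it was 0.94 without the first MEL1 S4 preparation. All of these levels were called higher than input except MEL1 S0, which missed the 2-fold limit but was called with TMM within each library type (1.15) and without the first MEL1 S0 preparation (1.27), and the H1 S4 level missed it too with size factors (0.92) or thinned IP libraries (0.99). Line differences in level were called for 16.1%, 3.46%, 40.2% and 2.79% of peaks at the successive stages. Peaks called higher made up 31.5%, 30.3%, 23.5% and 30.2% in H1 and 28%, 28.8%, 19.2% and 25.9% in MEL1 at S0, S3, S4 and S6.

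The stages with the highest input level and the highest m6A were not the same. Both measures use the same input counts, so counting error in the input enters both. In H1, S4 had the highest input level (34.4 CPM) and the lowest m6A at 1951. In MEL1, S3 had the lowest mean input (9.36 CPM, where the change from S0 was not called) and the highest m6A, and S6 combined the highest input with an m6A level near that of H1 at S0, S3 and S6. The IP libraries alone held 60.4 and 69.7 CPM at 1951 at S4 in H1, against 76.5 and 61.3 at S0 and 156 and 164 at S3. The S4 and S0 values overlapped, and those at S6 lay between the S0 and S3 values. In MEL1 they held 12.6 and 20.5 CPM at S0 and 73.7 and 91.9 at S3. Similar input levels went with different m6A levels at S0, where the lines held 8.74 and 10.5 CPM.

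Markers of other cell types that can hold SOX9 were counted beside these results. In MEL1, the 7 of 15 measured hepatic and intestinal markers summed to 36741 to 42845 CPM at S3, 72632 to 75006 at S4 and 8429 to 8857 at S6, against 218 to 520 over the same stages in H1. AFP, the fetal liver plasma protein, was at 0 CPM in both H1 S0 libraries, at 0.88 to 7.16 in the differentiated H1 libraries and at 22503 and 26655 in MEL1 at S4. The 10 of 16 measured neural and neural crest markers summed to 1685 to 1706 CPM at S0 and 2547 to 3314 at S3 to S6 in H1. In MEL1 they summed to 2268 to 2410 CPM at S0, 122 to 128 at S3, 860 to 958 at S4 and 1068 to 1105 at S6, so they were highest at S0. NES, an intermediate filament of neural progenitors, led this list. Their part in the SOX9 levels was not tested.

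The 6 of 16 measured mesenchyme and cartilage markers summed to 12183 to 13033 CPM in MEL1 at S6, 2670 to 2905 at S4 and 198 to 203 at S3, and to 1457 to 1812 at S3 to S6 in H1. In the MEL1 S4 and S6 libraries and in the differentiated H1 libraries most of this was COL2A1, which is also among the cartilage targets of SOX9. In MEL1 the mean sum was 2788 CPM at S4 and 12608 at S6, and COL2A1 alone made up 2031 and 12353 of it. The rise from S4 to S6 was thus that of COL2A1, and the other members together held less at S6 than at S4. The part of mesenchyme in the SOX9 level was not tested.

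Of 17 listed cartilage targets of SOX9, 6 were measured, and over both lines 3 were called higher and 0 lower for S3 vs S0, 1 and 0 for S4 vs S3, and 1 and 1 for S6 vs S4. Their median log2 change was 1.63, 0.60 and -0.33, against -0.02, 0.02 and -0.03 over all genes. Within H1, 3 were higher and 0 lower for S3 vs S0, 1 and 1 for S4 vs S3, and 0 and 2 for S6 vs S4, and within MEL1 2 and 1, 3 and 0, and 2 and 1. In either direction, 21.8%, 6.18% and 8.48% of all genes were called in these steps in H1 and 44.9%, 11% and 17.7% in MEL1. Over all genes 15% were called higher and 13.8% lower for S3 vs S0, 1.49% and 0.351% for S4 vs S3, and 2.85% and 2.33% for S6 vs S4. COL2A1, the chain of type II collagen, held 117 and 115 CPM at S0 in H1, then 1557 and 1556 at S3, 1741 and 1362 at S4 and 1407 and 1404 at S6. In MEL1 it held 68.1 and 79.0 at S0, 49.0 and 61.8 at S3, 2114 and 1947 at S4 and 12781 and 11925 at S6. Like SOX9 it had risen at S3 in H1 alone and was highest at S6 in MEL1.

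Within MEL1, COL2A1 rose by 5.19 from S3 to S4 (SE 0.17, adjusted p = 3.21e-14 by edgeR) and by 2.61 from S4 to S6 (SE 0.15, adjusted p = 6.06e-11 by edgeR). In H1 it changed by -0.14 from S4 to S6 (adjusted p = 0.557 by edgeR), where SOX9 fell. COL9A2, a chain of type IX collagen, held 44.1 and 43.2 CPM at S4 and 566 and 501 at S6 in MEL1, a called rise of 3.61 (SE 0.17, adjusted p = 3.72e-12 by edgeR). COL11A1 had group means of 142 CPM at S4 and 87.8 at S6 in MEL1, and COL27A1 fell by 1.11 there (adjusted p = 0.000218 by edgeR), so the collagens did not move as one.

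The other lists hold genes with which SOX9 is known to work. Of 25 progenitor transcription factors 19 were measured, and 16 were called higher and 0 lower for S3 vs S0, 1 and 3 for S4 vs S3, and 2 and 3 for S6 vs S4, against 15% and 13.8%, 1.49% and 0.351%, and 2.85% and 2.33% of all genes. FOXA2, a pioneer factor of endoderm, had group means of 3.77, 377, 173 and 66.7 CPM in H1 and 3.05, 809, 251 and 139 in MEL1 at S0, S3, S4 and S6, and so was highest at S3 in both lines, unlike SOX9. HNF4A, a hepatic and pancreatic nuclear receptor, had 47.5 CPM in H1 and 908 in MEL1 at S3.

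In the Notch and Hippo pathway, 26 of 33 genes were measured, with 6 called higher and 3 lower for S3 vs S0 (15% and 13.8% of all genes), 2 and 0 for S4 vs S3 (1.49% and 0.351%), and 1 and 3 for S6 vs S4 (2.85% and 2.33%). Within H1 it was 8 and 2, 0 and 1, and 0 and 5 for the same steps, and within MEL1 6 and 8, 7 and 0, and 6 and 3. Of all genes, 21.8%, 6.18% and 8.48% were called in either direction in these steps in H1, and 44.9%, 11% and 17.7% in MEL1. NOTCH3, a Notch receptor, had group means from 117 to 266 CPM in H1 and from 72.8 to 353 in MEL1, and was higher at S3 than at S0 by 1.38 on the log2 scale (adjusted p = 0.000597 by edgeR). In the FGF receptor pathway, 15 of 18 genes were measured, with 4 higher and 5 lower, 0 and 0, and 1 and 1 in the same comparisons over both lines by edgeR. Within lines it was 0 higher and 4 lower in H1 and 6 and 2 in MEL1 for S6 vs S4 (8.48% and 17.7% of all genes in either direction). For S4 vs S3 it was 0 and 0 in H1 and 3 and 1 in MEL1 (6.18% and 11%). The difference between lines in the S6 vs S4 change was called for 9 of the 15 genes, each more positive in MEL1, against 15.3% of all genes. DUSP6, a phosphatase induced by FGF signalling, had 284 and 65.9 CPM at S4 and S6 in H1 and 210 and 742 in MEL1, where it fell by 2.10 in H1 and rose by 1.82 in MEL1 (adjusted p = 1.53e-09 and 4.02e-09 by edgeR). SPRY2, a feedback inhibitor, had 122 and 76.3 in H1, a change of -0.67 under the 2-fold limit, and 149 and 356 in MEL1, where it rose by 1.26 (adjusted p = 3.05e-07 by edgeR).

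Of 22 duct genes, 14 were measured, with 3 called higher and 2 lower for S3 vs S0, where 15% and 13.8% of all genes were, 2 and 0 for S4 vs S3 (1.49% and 0.351%), and 2 and 0 for S6 vs S4 (2.85% and 2.33%). KRT19, a keratin of duct cells, held 3575 and 4129 CPM at S4 and 7803 and 8705 at S6 in MEL1, and 809 and 568 then 1172 and 1201 in H1. CDH1, the epithelial cadherin, had 222 and 245 CPM at S4 and S6 in H1 and 714 and 713 in MEL1. Of the 18 other SOX family members listed, 10 were measured, with 2 higher and 1 lower for S3 vs S0 and none called in the other steps over both lines by edgeR. Within lines, 4 were called higher in MEL1 for S4 vs S3, 3 lower in H1 for S6 vs S4 and 1 higher in MEL1 for S6 vs S4. Of all genes, 11%, 8.48% and 17.7% were called in either direction in the respective comparisons. SOX2, the pluripotency and neural factor, was called lower at S3 over both lines, and it held 825 and 836 CPM at S3 in H1 and 6.51 and 25.5 in MEL1. SOX4, a progenitor and endocrine factor, had group means of 521 to 735 CPM in H1 and 852 to 1075 in MEL1.

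For the lists that follow, the shares of all genes called higher and lower were 15% and 13.8% for S3 vs S0, 1.49% and 0.351% for S4 vs S3, and 2.85% and 2.33% for S6 vs S4. Within lines, the shares called in either direction were 21.8%, 6.18% and 8.48% in H1 and 44.9%, 11% and 17.7% in MEL1 for the same steps, and 15.3% for the difference between lines in S6 vs S4. Of 22 genes of the m6A machinery, 15 were measured, and 1 was called higher and 1 lower for S3 vs S0 and none in the later steps over both lines by edgeR, while within MEL1 it was 1 and 3 for S3 vs S0 and 0 and 1 for S6 vs S4. The calls over both lines were RBM15B, an adaptor of the methyltransferase complex, at 1.09 and METTL16, a methyltransferase, at -1.14, the latter named after its values were seen. The methyltransferase genes METTL3 and METTL14 were not analysed here. Among the marker lists, the undifferentiated markers had 0 called higher and 7 lower for S3 vs S0, 0 and 1 for S4 vs S3, and 0 and 1 for S6 vs S4, and the endocrine markers had 1 and 2, 1 and 0, and 2 and 0. CHGA, a secretory granule protein, held 721 and 727 CPM at S6 in MEL1 and 810 and 781 in H1, so SOX9 levels of 72.2 and 16.7 CPM went with similar CHGA levels. The neural and neural crest markers had 4 and 4, 5 and 0, and 1 and 1. The mesenchyme and cartilage markers had 3 and 0, 0 and 0, and 0 and 0 by edgeR, where DESeq2 called 3 for S4 vs S3, and the hepatic and intestinal markers had 7 and 0, 0 and 0, and 0 and 5.

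The genes whose input level ran most like SOX9 were found by Pearson's r of log2(CPM + 1) over the 16 input libraries, among the 6525 genes whose mean reached 5 CPM. This is a description, since the libraries share their line, stage and scaling. The highest r were those of FOXQ1 (0.948), a forkhead transcription factor, COL2A1 (0.930), HEG1 (0.928), an endothelial and epithelial membrane protein, COL9A2 (0.915) and HES1 (0.911), a Notch target that represses endocrine fate. FOXQ1 was at 0 CPM in all S0 libraries and in MEL1 at S3, had 8.64 and 7.96 CPM at S4 and 2.66 and 2.43 at S6 in H1, and had 3.36 and 7.75 at S4 and 39.6 and 35.1 at S6 in MEL1. It thus shared both the late fall in H1 and the late rise in MEL1.

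HES1 shared the rise in MEL1 but not the fall in H1, with 67.2 and 78.9 CPM at S4 and 197 and 176 at S6 in MEL1, and 107 and 88.6 then 101 and 94.4 in H1. HEG1 had 29.4 and 23.2 CPM at S4 and 158 and 161 at S6 in MEL1. Among the lowest r were those of NEU3 (-0.919), ELK1 (-0.918), PLCL2 (-0.901) and ZNF18 (-0.881). NEU3, a membrane sialidase, had group means of 40.0 and 44.6 CPM at S0 and S3 and 7.72 at S6 in MEL1, and 33.1 at S0 and 13.6 at S4 in H1.

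**Figure D5:**
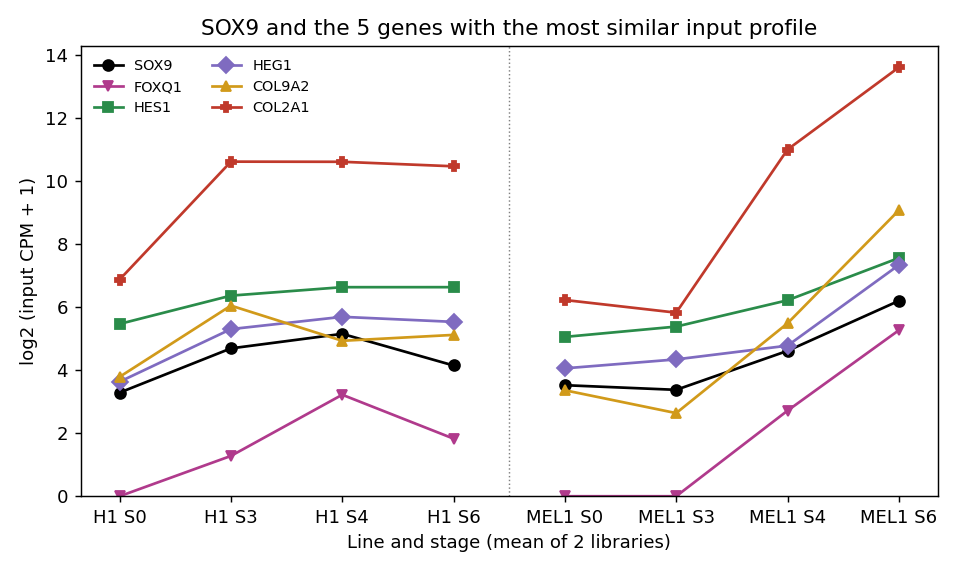
log2(input CPM + 1) on the y axis for SOX9 (black) and the 5 genes with the highest Pearson's r to it, against line and stage on the x axis; each symbol is the mean of 2 libraries. All 6 genes are highest at S6 in MEL1, where SOX9 has 72.2 CPM and COL2A1 12353 CPM.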

How the data were processed

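Poly(A)-selected RNA of 16 preparations of the H1 and MEL1 lines was sequenced as input and m6A IP. The authors counted reads in 50-bp bins on Ensembl v94 with MeRIPtools and merged the called peaks, and the deposited table holds raw counts per merged peak for 32 libraries. Aligner, genome build and peak settings are not given in the sources used here. Input counts of a gene are the sum over its merged peaks, so reads outside peaks do not enter and genes without a peak were not analysed here.

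Genes or peaks with a total of at least 10 counts were tested (7973 genes, 26104 peaks) with edgeR 4.0.16 in R 4.3.3 (TMM scaling, quasi-likelihood test, Benjamini-Hochberg adjustment), with stage and line for input and stage by library type plus line for m6A. This replaces the DESeq2 Wald test of the study, which was run as an alternative (DESeq2 1.42.0). The SE was taken as log2 fold change over √F. Fits were tested on simulated data. Library totals were 2652830 to 6879256 counts for input and 2378881 to 15674899 for IP. Reads carried no molecular identifiers, so Wilson intervals (95%) cover counting error only. Levels used a pseudocount of 1 CPM, which understates changes of low values. SOX9 and its lists were chosen with earlier results of these data known. Named list genes were the 4 with the highest mean input CPM, those set beside a SOX9 result and the 5 genes most and least alike, of which 1 is not reported here. The Y-linked member of the SOX list was left out. CPM is not per length, so levels were not ranked between genes.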

Additional observations from a re-analysis of the deposited data

Results flagged for a closer look

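Among the S0 input libraries, SOX9 stood lowest in the first H1 preparation, at 7.25 CPM, apart from the other 3 by more than Dixon's critical value, which chance exceeds in about 1 in 20 groups. Several SOX9 measures were screened at every stage with both lines pooled, so 1 such flag by chance would not be unusual. The change of SOX9 input differed between the lines, as MEL1 minus H1 on the log2 scale, by -1.66 for S3 vs S0, 2.67 for S6 vs S4, 1.86 for S6 vs S0 and 3.51 for S6 vs S3. The change of m6A at the peak at 1951 differed by 3.34 for S3 vs S0, -1.41 for S6 vs S4, 3.69 for S4 vs S0 and 2.29 for S6 vs S0. These differences were tested as interactions of line and stage with edgeR. No explanation was tested.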

How the results depend on the processing

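Of the alternative values, 1894 kept direction and side of the threshold, 37 lost the call, 20 gained one, 31 changed sign and 2 counts moved by over 1.5 times; the cause was not tested. Low input counts at 51 and 2 preparations per group limit the precision.

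SOX9 input, S6 vs S3, was not called without the line term (1.37), with the replicate block (1.31, adjusted p = 0.138), with only the 2 stages (1.14) or at 1951 alone (1.22). Deviations of same-numbered libraries correlated at 0.10 to 0.17 in MEL1 input but at -0.038 to 0.060 in H1 input and -0.11 to 0.29 in IP over input, so the numbers may pair the MEL1 input libraries and not the others. The replicate block changed no other SOX9 call over both lines and, in a fit chosen after seeing the data, no input call within or between lines (S6 vs S4 in MEL1 1.63, line difference 2.67). With H1 alone, input changes were 1.48 (S3 vs S0), -1.04 (S6 vs S4), 0.93 (S6 vs S0) and -0.55 (S6 vs S3), and m6A changes at 1951 were -0.22 (S3 vs S0), -1.87 (S4 vs S3), 1.86 (S6 vs S4), -2.09 (S4 vs S0) and -0.23 (S6 vs S0), with -0.093 at 51 (S6 vs S0). With MEL1 alone, input changes were -0.21 (S3 vs S0), 1.32 (S4 vs S3) and 1.63 (S6 vs S4), and m6A changes at 1951 were 3.04 (S3 vs S0), -1.45 (S4 vs S3), 1.58 (S4 vs S0) and 2.18 (S6 vs S0), with 0.19 at 51 (S4 vs S3), and IP over input was 0.82 at 1951 (S0) and -1.13 at 51 (S4).

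DESeq2 gave 0.47 at 51 (S4 vs S3), -1.42 for IP over input at 51 (S0), -0.93 at 1951 in MEL1 (S4 vs S3), 0.0083 at 1951 in H1 (S6 vs S0), 0.92 for IP over input at 1951 in H1 (S4), 0.030 for the line difference at S6 and 3 mesenchyme genes (S4 vs S3). DESeq2's size factors in edgeR gave 0.47, -1.41, -0.93, 0.0098, 0.92 and 0.029 for the same SOX9 values. TMM within each library type gave 0.32 at 51 (S4 vs S3), -0.99 for IP over input at 51 (S4), -0.99 at 1951 in MEL1 (S4 vs S3), 1.15 for MEL1 at S0 and 0.036 for the line difference at S6. The preparation block gave -1.70 at 1951 (S4 vs S3). Leaving out mitochondrial genes gave 0.31 at 51 (S4 vs S3), leaving out both MEL1 S4 preparations gave 1.24 at 1951 (IP over input at S4), and thinned IP libraries gave 0.99 for H1 at S4.

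From 51 alone, input changes were 1.19 (S3 vs S0), 0.98 (MEL1, S3 vs S0), -0.32 (line difference, S3 vs S0), 0.84 (MEL1, S4 vs S3), -0.52 (H1, S6 vs S4), 1.31 (H1, S6 vs S0) and 0.016 (H1, S6 vs S3), and MEL1 vs H1 was -0.30 at S0 and -0.62 at S3. From 1951 alone they were 0.86 (MEL1, S4 vs S0) and -1.18 (line difference, S4 vs S0).

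Leaving out 1 preparation at a time, the input change ranged from 0.98 to 1.75 (S6 vs S3), 0.70 to 1.21 (H1, S6 vs S0) and -1.06 to -0.56 (line difference, S4 vs S0). m6A changes at 1951 ranged from -1.79 to -0.81 (MEL1, S4 vs S3), -1.64 to -1.19 (line difference, S6 vs S4), -0.36 to 0.092 (H1, S6 vs S0), -0.039 to 0.22 (H1, S6 vs S3), -1.11 to 0.16 (S4 vs S0) and -0.50 to 0.064 (S6 vs S3), and at 51 from -0.34 to 0.38 (S4 vs S3) and -0.19 to 0.96 (S6 vs S0). IP over input ranged from -1.40 to -0.25 (51, S0), -1.81 to -1.19 (51, S4) and 0.34 to 1.27 (1951, MEL1 at S0), its line difference at 1951 from 0.94 to 1.71 (S4) and -0.42 to 0.068 (S6), and the calls at 51 by line from 0 to 1.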
